A study of Capitella teleta with 10 samples.

Results

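Among the 46409 consensus regions of open chromatin measured during the development of the annelid Capitella teleta, 3709 (7.99%) had about the same signal in the 64-cell embryo and in the stage 8 larva and a lower signal at gastrula and at larval stage 4tt, and these 3709 peaks are described here. They were chosen by their measured values. The mean of the 2 libraries was taken per stage, and a peak was kept when its 64-cell and stage 8 means were both at least 100 units, differed by less than 1.5 times, were each at least 1.5 times the gastrula mean and at least 1.5 times the stage 4tt mean, and when its stage 5 mean stayed under 1.5 times the higher of the 64-cell and stage 8 means. The minimum of 100 units left 35932 peaks, similarity of the 64-cell and stage 8 means left 20144, the limit over gastrula left 5608, the limit over stage 4tt left 3723, and the limit on stage 5 removed only 14 more. The high, low and high order of the means is therefore the way the members were found and not a result.

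Open chromatin is the share of the genome where nucleosomes leave DNA accessible to proteins, and in animals it comprises promoters and enhancers. Enhancers are bound by transcription factors and can be used at separate times of development in different cells. Capitella teleta is a spirally cleaving annelid whose non-feeding larva develops from a gastrula, elongates its trunk and forms segments before metamorphosis.

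Accessibility was measured by ATAC-seq, an assay whose transposase inserts sequencing adaptors where DNA is not wrapped in nucleosomes. Each of the 10 libraries held about 50000 cells from pooled whole animals, with 2 replicates per stage: about 500 embryos with 64 cells, 200 gastrulae, 120 larvae of stage 4tt, 90 larvae of stage 5 and 50 larvae of stage 8. Whole-animal libraries cannot tell a region open in fewer cells from a region less open in each cell. The first 3 stages (6 libraries) were sequenced in Oxford and the later larvae (4 libraries) by Novogene with a different instrument, so that stage and sequencing batch cannot be told apart between stage 4tt and stage 5 or between the 64-cell embryo and stage 8. The rearing text in the labels of every library describes another annelid, Owenia fusiformis, and the species was taken from the organism labels and titles. The values are signal normalized by the authors, in arbitrary units, and the read depth behind them is not given in the table. The smallest value above 0, a rough guide to the weight of a single read, lay between 0.514 units in stage 8 replicate 1 and 2.32 units in 64-cell replicate 1. The genes near the members and their sequences were not analysed here.

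The members were close to the median consensus peak at the ends of the series and under it in its middle. Their median signal was 336 and 329 units in the 64-cell libraries, 151 and 142 units in the gastrula libraries, 163 and 167 units in the stage 4tt libraries, 325 and 316 units in the stage 5 libraries, and 346 and 363 units in the stage 8 libraries. Over all consensus peaks the same medians were 333 and 335, 273 and 257, 285 and 285, 345 and 344, and 351 and 367 units. The members were thus close to the middle of all peaks in 6 libraries and well under it in the 4 libraries of gastrula and stage 4tt. None of the members was at 0 in any library, and the lowest value of a member at gastrula or stage 4tt was 12.5 units. The values therefore did not reach 0, and how much of the remaining signal was background was not tested. The authors called no peak in either gastrula library for 3015 members (81.3%, against 36.9% of all consensus peaks). For 2832 members (76.4%, against 32.0%) they called none in either stage 4tt library. The absolute log2 difference between the 2 replicates of a stage had a median over the members of 0.11 (stage 8) to 0.20 (gastrula).

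**Figure D1:**
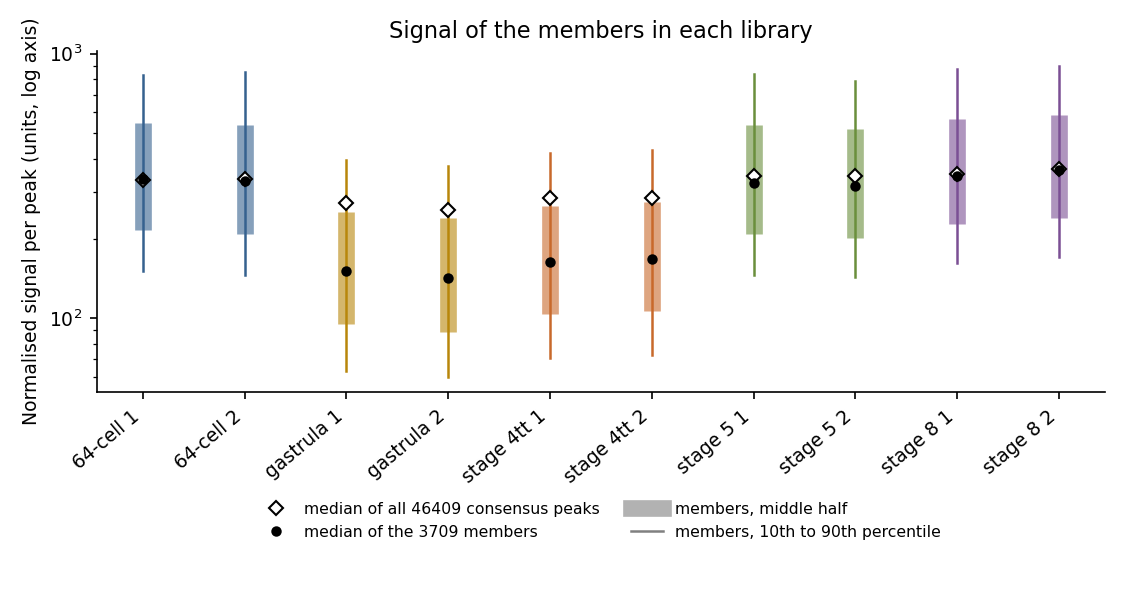
Normalised signal of the 3709 members in each of the 10 libraries (log axis), as the median (black point), the middle 50% of members (thick bar) and the 10th to 90th percentile (thin line), with the median of all 46409 consensus peaks as a white diamond. The members' medians sit between 142 and 167 units in the gastrula and stage 4tt libraries and between 316 and 363 units in the other 6, while the medians of all peaks move only between 257 and 367 units.

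The depth of the dip was expressed as the dip ratio, the lower of the 64-cell and stage 8 means over the higher of the gastrula and stage 4tt means, which the rule set to at least 1.5. It had a median of 1.78 and quartiles of 1.63 and 2.01, and the highest value was 4.32. A ratio of at least 2 was found in 946 members (25.5%) and of at least 3 in 33, whereas 731 (19.7%) were under 1.6. Most members were thus shallow and lay near the limit of the rule. In 3695 members (99.6%) every 64-cell and stage 8 library was above every gastrula and stage 4tt library, which held for 24.7% of all consensus peaks, a count that the rule fixes in the main.

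The 6 members with the largest dip ratio show the form of the change, with both libraries given in place of an error for n = 2. CTEL_peak_36295 (scaffold 619, positions 116121 to 116636, 516 bp) held 296 and 430 units in the 64-cell libraries, 75.5 and 72.4 at gastrula, 97.2 and 70.8 at stage 4tt, 140.2 and 139 at stage 5, and 456 and 456 at stage 8. At stage 5 this peak was still nearer to the low stages than to stage 8, and its ratio of 4.32 was the highest of all members. CTEL_peak_45349 (scaffold 940, 9985 to 10258, 274 bp) held 112 and 119 units at 64 cells, 30.0 and 24.9 at gastrula, 17.1 and 33.3 at stage 4tt, 93.8 and 106 at stage 5 and 106 and 115 at stage 8. It was a weak peak that was back to its late level by stage 5. CTEL_peak_3863 (scaffold 1205, 11911 to 12551, 641 bp) held 167 and 262 units at 64 cells, 54.9 and 46.3 at gastrula, 68.0 and 44.1 at stage 4tt, 125 and 103 at stage 5, and 299 and 272 at stage 8. As in CTEL_peak_36295, the stage 5 libraries lay between the low and the high stages and overlapped neither.

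CTEL_peak_18598 (scaffold 274, 12175 to 13746, 1572 bp) held 806 and 1079 units at 64 cells, 146 and 139.6 at gastrula, 138 and 203 at stage 4tt, 543 and 587 at stage 5, and 613 and 690.5 at stage 8. CTEL_peak_21894 (scaffold 319, 59002 to 59208, 207 bp) held 123 and 284 units at 64 cells, 49.4 and 36.3 at gastrula, 54.4 and 40.5 at stage 4tt, 179 and 149 at stage 5 and 160.4 and 182 at stage 8. Its 64-cell replicates differed by a larger ratio than those of the other 5 peaks, and both were still above all gastrula and stage 4tt libraries. CTEL_peak_27774 (scaffold 417, 215122 to 217761, 2640 bp) was the strongest of the 6, with 3138 and 3758 units at 64 cells, 787 and 732 at gastrula, 706 and 892 at stage 4tt, 1554 and 1547 at stage 5, and 3016 and 2690 at stage 8. In each of these 6 peaks the values of gastrula and stage 4tt overlapped each other and lay below every other library. All 6 were among the peaks that the authors called in both stage 8 libraries. At 64 cells CTEL_peak_18598 and CTEL_peak_27774 were called in both libraries. CTEL_peak_36295, CTEL_peak_3863 and CTEL_peak_21894 were called at 64 cells in replicate 2 only, and CTEL_peak_45349 in neither replicate.

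**Figure D2:**
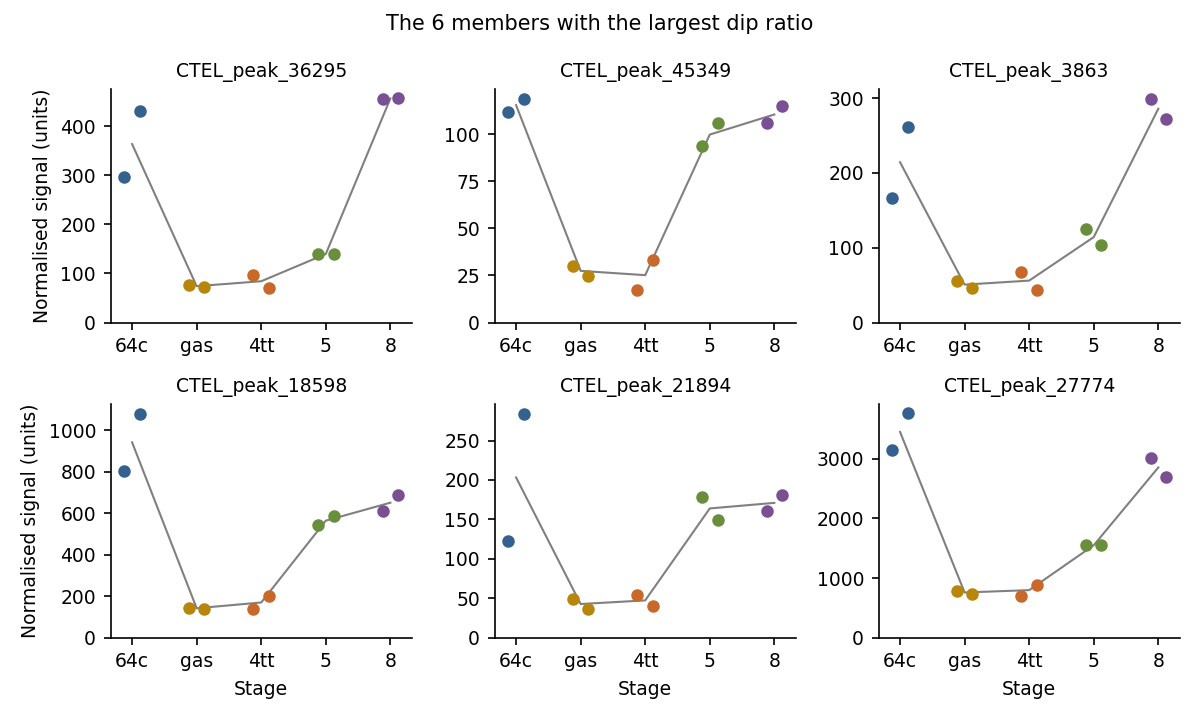
Normalised signal (units, each axis from 0) of the 6 members with the largest dip ratio at the 64-cell (64c), gastrula (gas), stage 4tt, stage 5 and stage 8 time points; points are the 2 libraries of a stage and the grey line joins their means. CTEL_peak_36295, CTEL_peak_3863 and CTEL_peak_27774 sit at intermediate values at stage 5, and the other 3 are close to their stage 8 values by then.

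Of the 4 strongest members, 3 had a dip ratio near the median of all members, and that of CTEL_peak_9250 was higher. The 4 members with the highest summed 64-cell and stage 8 means were CTEL_peak_41114 (scaffold 78, 299763 to 304487), CTEL_peak_44353 (scaffold 9, 625264 to 629091), CTEL_peak_30198 (scaffold 468, 33508 to 35867) and CTEL_peak_9250 (scaffold 1674, 8900 to 11641). CTEL_peak_41114 held 6367 and 7168 units at 64 cells, 2976 and 2808 at gastrula, 3510.3 and 3768 at stage 4tt, 5204 and 4706 at stage 5 and 8444 and 7780 at stage 8. CTEL_peak_9250 held 3981 and 4643 units at 64 cells, 1366 and 1446 at gastrula, 1273 and 1462 at stage 4tt, 2272 and 1690 at stage 5 and 4849 and 4911 at stage 8, a dip ratio of 3.07. The other 3 had dip ratios of 1.86, 1.76 and 1.87 in the order named. All 4 were detected in the peak lists of all 10 libraries. At the limit of the rule, CTEL_peak_5089 and CTEL_peak_6924 were kept and CTEL_peak_4588 and CTEL_peak_1285 were left out, with dip ratios that all round to 1.5. The stage means of CTEL_peak_5089 were 1306 at 64 cells, 818 at gastrula, 870 at stage 4tt and 1469 at stage 8, and those of CTEL_peak_1285, left out, were 671, 448, 425 and 721 units. These peaks differ in level but hardly in dip ratio, and the border of the set is a choice.

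The dip was read again in libraries that had not chosen the peaks. The rule applied to the replicate 1 libraries alone chose 3816 peaks with a median dip ratio of 1.80, and in the replicate 2 libraries the same peaks had a median of 1.63, with 97.1% above 1 and 64.9% at or above 1.5. The replicate 2 libraries alone chose 3368 peaks, whose median of 1.80 became 1.68 in the replicate 1 libraries, with 97.1% above 1 and 67.6% at or above 1.5. Of all consensus peaks 33.4% and 32.1% were above 1 and 12.9% and 12.8% at or above 1.5 in the replicate 2 and replicate 1 libraries, with median ratios of 0.775 and 0.731. The direction was thus found again in most of the chosen peaks, and the whole rule was met in both replicates by 2019 peaks, 52.9% of those chosen with replicate 1 and 59.9% of those chosen with replicate 2, against 7.26% and 8.22% of all peaks. The 2 replicates of a stage share their batch and the authors' normalization, so this reading does not separate the stage from either.

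The peaks that the authors called in each library separately describe the same libraries in another readout. They are no independent support, since a consensus peak must have been called in some library and the members are low in 4 of them. Both stage 8 lists held 3306 of the members (89.1%, against 79.3% of all consensus peaks), and both stage 5 lists held 2608 (70.3%, against 71.7%). Both gastrula lists held 364 (9.81%, against 54.8%) and both stage 4tt lists held 433 (11.7%, against 58.4%), so the members were rarely called where their signal was low. At 64 cells, however, both lists held only 828 members (22.3%, against 42.8% of all peaks). In neither list were 2211 members (59.6%, against 44.4% of all peaks). A called peak thus stood behind the label of a region open at 64 cells in a minority of the members, and the rest had a signal within 1.5 times of that at stage 8 without a call in both libraries. Of the members, 200 (5.39%) were in both lists of both high stages and in none of the 4 lists of gastrula and stage 4tt. This was the case for 493 (1.06%) of all consensus peaks. In all 10 lists were 232 members (6.26%), against 14608 (31.5%) of all consensus peaks. The count of 200 became 55 when 50% of the peak had to be covered, 124 at a −log10 q of at least 5, and 580 and 440 with the lists of replicate 2 and of replicate 1 alone.

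**Figure D3:**
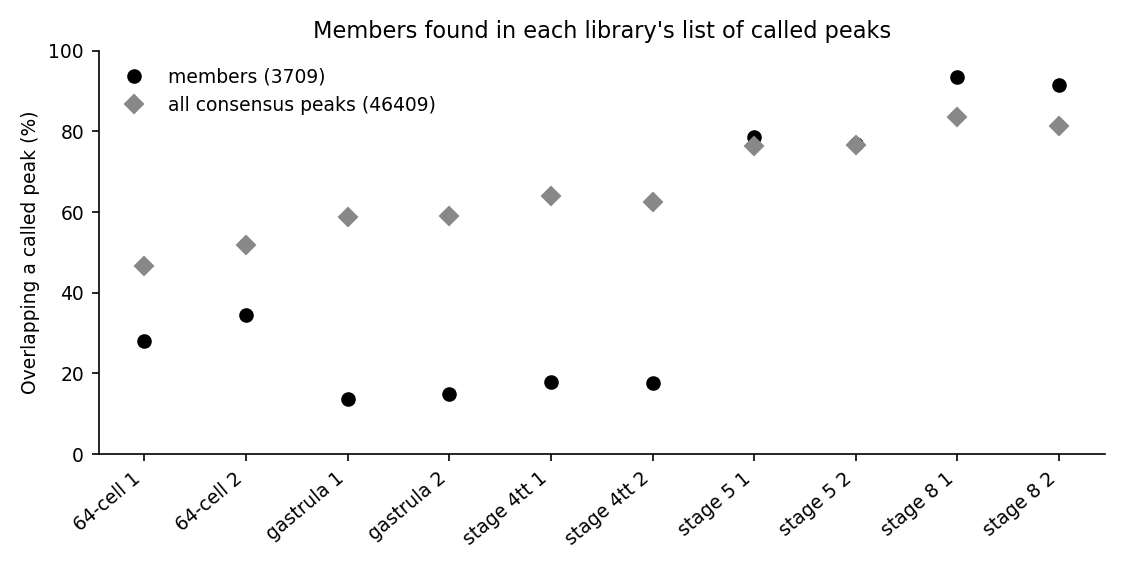
Share of members (black circles) and of all consensus peaks (grey diamonds) that overlap a peak called by the authors in each library, in percent. Members lie under all peaks in the 64-cell, gastrula and stage 4tt libraries, with 28.1% and 34.6% at 64 cells and 13.6% to 17.8% at gastrula and stage 4tt, close to all peaks at stage 5, and above them at stage 8 with 93.4% and 91.5%.

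Within a band of signal per length, members were called less often than other peaks at 64 cells. Among peaks with 500 to 700 units per kb at 64 cells, 32.3% of 905 members and 50.8% of 6888 other peaks past the minimum of 100 units were in both 64-cell lists. At stage 8 the order was the other way round at low signal, where of the peaks with 300 to 400 units per kb 86.9% of 796 members and 64.5% of 4028 others were in both lists. The 64-cell lists were the shortest among the 10 together with the gastrula lists (40205 and 45862 peaks, against 64765 and 62609 at stage 8), and how far list length and depth set these shares was not tested. Of 2833 peaks that met the 64-cell limits but were not high again at stage 8, 76.3% and 81.6% were in the 64-cell lists of replicates 1 and 2, against 28.1% and 34.6% of the members.

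A set of 773 members was in both 64-cell and both stage 8 lists, and the main values were computed again in this set, an alternative chosen after seeing the data. These members were longer (median 1257 bp, against 796 bp) and stronger, with medians of stage means of 689, 294, 330.4, 592 and 683 units from the 64-cell embryo to stage 8. Their median dip ratio was 1.79, against 1.78 in all members, and it was 2 or more in 207 (26.8%). The 2211 members in neither 64-cell list had medians of 258, 116, 134, 262.5 and 292 units and a median ratio of 1.78.

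The spread of signal over all peaks of the series also differed between the stages. The 10 strongest consensus peaks alone held 22.7% and 18.3% of the signal in the 64-cell libraries, 10.6% and 11.4% at gastrula, 7.30% and 7.42% at stage 4tt, 1.84% and 2.09% at stage 5 and 3.90% and 4.05% at stage 8, an order unlike that of the members. Without these 10, the strongest 10% of consensus peaks held 36.8% to 36.9% of the signal in the 64-cell libraries, 44.3% to 45.0% in the gastrula and stage 4tt libraries, 41.9% to 42.5% at stage 5 and 38.6% to 39.5% at stage 8. The weaker 50% of peaks held 13.5% to 13.9%, 9.76% to 10.4%, 12.6% to 12.7% and 14.1% to 14.5% in the same stages. Weak peaks as a class therefore took a lower share of the signal at gastrula and stage 4tt. Across the 35932 peaks past the minimum of 100 units, the median log2 difference between the high pair (64 cells and stage 8) and the low pair (gastrula and stage 4tt) was 0.82 in the weakest 20% by mean level, 0.54, 0.19 and −0.11 in the next 3 groups of 20%, and −0.30 in the strongest 20%. The members made up 21.2% of the weakest and 1.39% of the strongest group, with shares that fell steadily between. This mean level includes the gastrula and stage 4tt libraries, which the rule holds low and which so place members in weaker groups. Grouped by the mean of the 64-cell and stage 8 means, an alternative chosen after seeing the data, members made up 16.1% of the weakest and 3.10% of the strongest group. The part of this difference between libraries in the dip of the members was not tested.

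The authors' fold enrichment sets each called peak against the background of its own library and is given for called peaks only. Members that have it in all 10 libraries were called even at gastrula and stage 4tt, so it cannot stand for the other members. In the 232 members found in all 10 lists its median was 3.07, 2.76, 2.77, 2.84 and 3.28 from the 64-cell embryo to stage 8, and 41.8% of them had both high stages above both low stages, against 7.37% of the 14608 consensus peaks found in all lists. The lower high stage over the higher low stage had a median of 0.954 in these members, under the value of 1 that a dip on this scale would need, and 0.604 in those consensus peaks. In the 14608 consensus peaks the medians ran the other way, with 3.41, 4.78, 5.11, 3.98 and 4.15. The enrichment of these 232 members was so under that of the 14608 consensus peaks at every stage. The number of peaks that met the rule moved with the scaling of the libraries. With trimmed-mean (TMM) factors computed on the values the rule found 2457 peaks, of which 2085 were members (56.2% of the members), and after quantile normalization, which gives all libraries the same distribution of values, it found 1591, of which 1434 were members (38.7%).

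The rule holds the gastrula and stage 4tt means under the same limit and does not set one against the other. It so takes out peaks high at either stage, which all consensus peaks still include, and the shares below are a description. The change from gastrula to stage 4tt was the step that the rule fixed least. It was tested on log2(value + 1) of all 46409 peaks with limma at a Benjamini-Hochberg adjusted p under 0.05, as were the other steps, and a peak that rose is called opened and a peak that fell closed. Of the members 689 (18.6%) opened, against 21.7% of all consensus peaks, and 107 (2.88%) closed, against 14.7%. The share that opened was thus near the background and the share that closed was under it. A low closed share was not particular to the members. Of 7871 peaks that met the limits at the latest stage but not at the earliest, 3395 (43.1%) opened and 272 (3.46%) closed. Of 2833 peaks that met them at the earliest stage but were not high again, 284 (10.0%) opened and 657 (23.2%) closed. The median log2 change was 0.16 in the members and 0.05 in all peaks, and the stage 4tt mean was above the gastrula mean in 2630 members (70.9%, against 54.6%). Both stage 4tt libraries were above both gastrula libraries in 1600 members (43.1%, against 38.6% of all peaks) and below both in 416 (11.2%, against 28.7%). Opened peaks made up 86.6% of the members that changed, against 59.6% of all peaks that changed. With TMM factors the shares were 76.2% (518 opened, 162 closed) against 49.6%, and after quantile normalization 65.0% (319 opened, 172 closed) against 52.3%. In the 773 members called at both high stages 178 opened and 38 closed. A fit of the 6 Oxford libraries alone called 347 members opened (9.36%, against 15.6% of all peaks) and 41 closed (1.11%, against 10.9%). Gastrula replicates 1 and 2 and stage 4tt replicates 1 and 2 were also left out in turn. The median log2 change of the members was then 0.20, 0.13, 0.18 and 0.15, against 0.08, 0.03, 0.06 and 0.06 over all peaks.

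**Figure D4:**
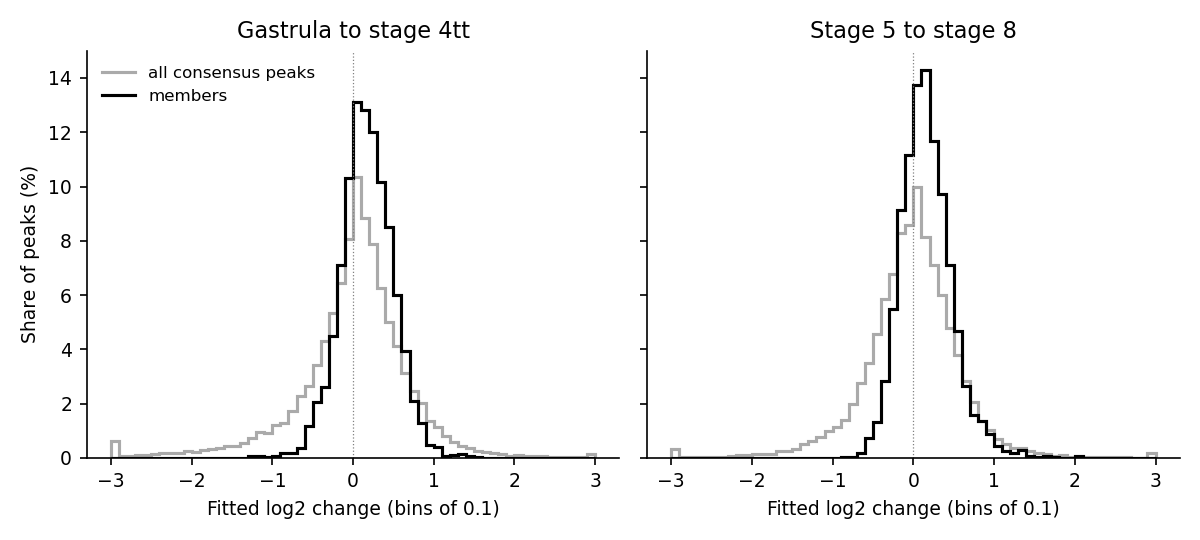
Distribution of the fitted log2 change of members (black) and of all consensus peaks (grey) from gastrula to stage 4tt and from stage 5 to stage 8, as the share of peaks per bin of 0.1, with changes beyond 3 in either direction placed in the outermost bins. The members are shifted above 0 in both steps (medians 0.16 and 0.14, against 0.05 and 0.00) and have a thinner left side than all peaks.

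The members with the largest called changes between the 2 low stages were followed one at a time. CTEL_peak_7537 (scaffold 150, 134569 to 135530) held 147 and 153 units at gastrula and 413 and 447 at stage 4tt, a log2 rise of 1.51 (adjusted p = 1.14e-06, limma). It had held 809 and 786 units at 64 cells and held 590 and 615 units at stage 5 and 787 and 810.4 at stage 8, so that all its stage 4tt values lay between those of gastrula and stage 5. CTEL_peak_3731 (scaffold 12, 803169 to 803880) rose from 67.2 and 59.9 units to 146 and 201 (log2 1.42, adjusted p = 0.000138, limma). The libraries of gastrula and stage 4tt did not overlap in either peak. CTEL_peak_21002 (scaffold 3054, 7952 to 8843) fell further, from 130.2 and 111 units at gastrula to 56.5 and 45.1 at stage 4tt (log2 −1.23, adjusted p = 0.000154, limma), and then held 489 and 419.6 units at stage 5, above its 367 and 337 at stage 8. CTEL_peak_12150 (scaffold 198, 224429 to 225325) fell from 57.4 and 57.4 units to 12.5 and 43.1 (log2 −1.26, adjusted p = 0.0254, limma), a call that 5 of 18 alternatives lost, with adjusted p from 0.00046 to 0.285.

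By stage 5 most of the members had returned to their late level. The stage 5 mean was at least 1.5 times the higher of the gastrula and stage 4tt means in 3101 members (83.6%) and under it in 33, and both stage 5 libraries were above all gastrula and stage 4tt libraries in 3600 (97.1%), which held for 43.7% of all peaks. The ratio of the stage 5 to the stage 8 mean had a median of 0.910 and ran from 0.238 to 1.86, and stage 5 was the highest of the 5 stages in 798 members (21.5%). From stage 4tt to stage 5, 3420 members (92.2%) opened, against 39.8% of all peaks. Since the rule holds stage 4tt low and caps stage 5, and since the 2 stages are in different batches, these counts are a description. From stage 5 to stage 8, within the Novogene batch, 544 members (14.7%) opened, against 15.3%, and 69 (1.86%) closed, against 17.4%, with a median log2 change of 0.14. A fit of the 4 Novogene libraries alone called 1043 members opened (28.1%, against 23.7% of all peaks) and 222 closed (5.99%, against 24.1%). The rule caps stage 5, a step that took the set from 3723 to 3709 peaks, and asks for a high stage 8 mean. Of 7871 peaks that met the stage 8 limits but not those of the earliest stage, 42 (0.53%) closed in the fit of all libraries. This set was chosen without a cap on stage 5. Its ratio of the stage 5 to the stage 8 mean had a median of 0.751 and a highest value of 3.79. Of 2833 peaks that met the limits of the earliest stage but were not high again, 688 (24.3%) closed. The source of the low closed count was not tested. Stage 5 replicates 1 and 2 and stage 8 replicates 1 and 2 were also left out in turn. The median log2 change of the members was then 0.16, 0.11, 0.18 and 0.10, against 0.00, 0.00, 0.02 and −0.03 over all peaks.

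The order of the calls over the 3 steps after gastrula is largely set by the rule, which holds gastrula and stage 4tt low and stage 8 high, and is given as a description. In 2377 members (64.1%, against 19.3% of all peaks) the only call was an opening from stage 4tt to stage 5, in 502 (13.5%, against 5.26%) openings were called from gastrula to stage 4tt and again to stage 5, and in 265 (7.14%, against 3.19%) from stage 4tt to stage 5 and again to stage 8. A later return, with the only call from stage 5 to stage 8, was found in 113 members (3.05%, against 3.09%), and 101 (2.72%, against 19.4%) had no call in any of these steps. The latest returns were those of CTEL_peak_17782 (scaffold 262, 129830 to 130168) and CTEL_peak_34495 (scaffold 570, 31268 to 31697). CTEL_peak_17782 held 292 and 190.2 units at 64 cells, 65.9 and 57.6 at gastrula, 69.1 and 121 at stage 4tt, 69.2 and 53.0 at stage 5, and 264 and 249 at stage 8. CTEL_peak_34495 held 66.0 and 79.2 units at stage 5, under the 98.5 and 102 units of stage 4tt, and reached 287 and 321 by stage 8. In both peaks the stage 5 libraries lay with the low stages. The other end was taken by CTEL_peak_3965 (scaffold 1210, 50431 to 51381) and CTEL_peak_42253 (scaffold 818, 4831 to 7020). CTEL_peak_3965 went from 133 and 185 units at stage 4tt to 493 and 429 at stage 5, and had 255 and 242 units at stage 8. CTEL_peak_42253 went from 309 and 334 units to 1221 and 1069, with 672 and 718.5 units at stage 8. Both peaks were higher at stage 5 than in all libraries of any other stage.

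The remaining steps were set by the rule and are given beside their background only. From 64 cells to gastrula, 3696 members (99.6%) closed, against 36.3% of all peaks. Between the 64-cell embryo and stage 8, which the rule holds within 1.5 times, 637 members (17.2%) were higher at stage 8, against 39.3% of all peaks, and 252 (6.79%) were lower, against 23%. The median log2 difference was 0.13 as deposited, −0.06 with TMM factors (105 higher and 618 lower) and 0.00 after quantile normalization (429 higher and 505 lower), so no direction is given. Without stage 8 replicate 1 the median log2 difference was 0.16 in the members and 0.25 in all peaks. Without stage 8 replicate 2 it was 0.10 and 0.19.

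The width of a member was close to that of all consensus peaks, with medians of 796 and 810 bp, and it was larger than that of other peaks of like signal outside the weakest groups. In the weakest 20% of peaks past the minimum the medians were 469 bp in members and 461 bp in other peaks, and in the next groups they were 848 and 687, 1266.5 and 914, 1782 and 1134.5, and 2309.5 and 1568 bp. The mean signal over the 10 libraries was 351 units per kb in the members (median) and 577 in the other peaks past the minimum. These levels include the 4 libraries that the rule holds low. Grouped instead by the mean of the 64-cell and stage 8 means, an alternative chosen after seeing the data, the medians were 423 bp in members and 461 bp in other peaks in the weakest 20%, and 740.0 and 681, 1076.5 and 909, 1539 and 1158, and 2129 and 1632.5 bp in the next groups, so that the members were the wider peaks in all groups but the weakest. The median signal of members and of other peaks past the minimum was 440.2 and 563 units per kb at 64 cells and 470 and 588 units per kb at stage 8, a smaller gap than over all libraries.

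The highest point of the peak was compared between the early and the late call. In the 773 members in all 4 lists, the summits of the 2 64-cell replicates lay a median of 77 bp apart and those of the 2 stage 8 replicates 73 bp apart, whereas a 64-cell and a stage 8 summit lay 152 to 200.0 bp apart over the 4 pairs of libraries, with 32.5% to 39.3% within 100 bp. In the 16971 consensus peaks in these lists the distances were 45, 25 and 68 to 70 bp. The early and the late summit were thus farther apart than replicates of a stage, in members and in all peaks, and all 3 distances were longer in the members. Within peaks of 500 to 1000 bp the medians were 57, 49 and 106 bp in 231 members and 38, 18 and 46.5 bp in 4307 other peaks. Among the 2833 peaks that closed after 64 cells by the same limits and were not high again, the distance from 64 cells to stage 8 was 177.5 to 189.5 bp in the 932 that were in all 4 lists. The lower fold enrichment of the members lies beside these values, and its part in the summit distances was not tested.

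The members were spread over 1068 of the 5551 scaffolds that hold a consensus peak. Of the 259 scaffolds with at least 50 peaks, 258 held a member, with a share of 0% to 28.8% and a median of 8.33%. Scaffold 234 had the highest share, with 15 members among 52 peaks. Members lay near other members more often than other peaks did. Another member was found within 10 kb of 1499 members (40.4%), and a member within 10 kb of 21.4% of the other consensus peaks, of 29.0% of the peaks that closed after 64 cells and were not high again, and of 28.6% of 7871 peaks that met the stage 8 limits but not the 64-cell limits. Any other peak was found within 10 kb of 96.1% of members and of 89.8% of the others, and the median gap to the nearest peak was 1588 and 1536 bp. Peaks that were not members but had one within 10 kb had a median log2 difference between the high and the low pair of stages of 0.35, against −0.01 in those with a neighbouring peak but no member, and 1.12 in the members. Neighbouring peaks are not independent of each other, and these shares are given with no test.

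Counting members within 10 kb of each other as a stretch, 2210 members stood alone, 461 stretches had 2, 123 had 3, 33 had 4, 10 had 5, 3 had 6, and a single stretch had 8. That stretch lies on scaffold 55 (positions 250604 to 287286, 36683 bp) and holds 14 consensus peaks, of which 8 were members with dip ratios of 1.59 to 2.37 and 6 were not, with ratios of 0.605 to 1.38. CTEL_peak_33755 (260699 to 262028) had the deepest dip, with 791 and 860.2 units at 64 cells, 302 and 307 at gastrula, 331 and 306 at stage 4tt, 595 and 485 at stage 5 and 706 and 803 at stage 8. CTEL_peak_33765 (286589 to 287286), at the far end, held 324 and 316, 118 and 122, 139 and 149, 289 and 319, and 352 and 367 units in the same order. The libraries of the high and the low stages did not overlap in either peak. CTEL_peak_33761, which was not a member, held 1261 and 1116 units at 64 cells, 906 and 956 at gastrula, 825 and 872 at stage 4tt, 503 and 560.3 at stage 5, and at stage 8 it held 536 and 590.5 units. The stretch thus held members beside a peak that was lower at stage 5 and stage 8 than at gastrula and stage 4tt.

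**Figure D5:**
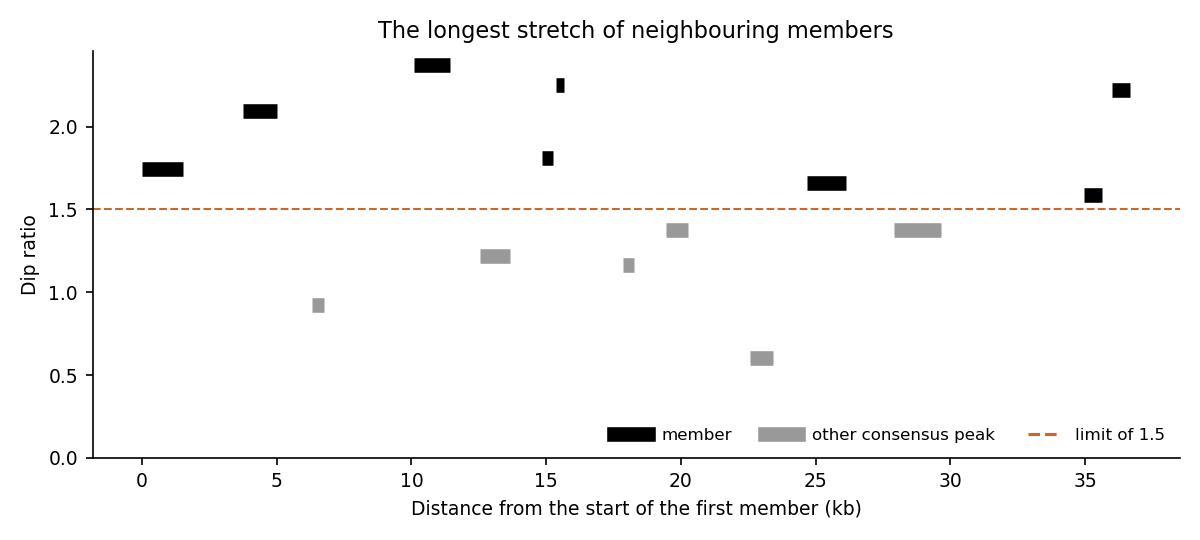
Dip ratio of the 14 consensus peaks in the stretch with the most neighbouring members, against the distance from the start of its first member in kb; bars span the width of a peak, black for the 8 members and grey for the 6 other peaks, and the dashed line is the limit of 1.5. The members lie between 1.59 and 2.37 and the others between 0.605 and 1.38, interspersed with them.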

How the data were processed

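Per the methods of the study, the authors used cutadapt for trimming, NextGenMap for mapping, samtools to take out duplicates, deepTools to correct for the transposase offset and MACS2 2.2.7.1 (version from the submitters' processing notes) to call peaks library by library. Reproducible peaks outside repeats were merged into a consensus set with DiffBind. The deposited consensus table holds 1 signal value per peak and library, normalized by the authors with DESeq2. The deposited lists give per called peak the fold enrichment over the background of that library (a ratio) and a −log10 q-value, with false discovery held at 1%. The build used for mapping these libraries is not named. For gene annotation the study started from an Ensembl Metazoa assembly, and whether the peaks use the same build was not tested. Positions follow the deposited files, with starts counted from 1 because 100% of consensus starts were found among called starts that count from 0.

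The signal values are not counts, so the change between stages was fitted on log2(value + 1) with limma 3.58.1 in R 4.3.3 (trend and robust moderation, 10 libraries in 1 fit, no low-value filter, two-sided, Benjamini-Hochberg over 46409 peaks, adjusted p under 0.05, any fold), and the script was tested on simulated data. A fold on this scale understates changes of low peaks. Replicates are the libraries the labels number 1 and 2 within a stage, described by the study as biological, and p-values measure the spread between them. A consensus peak counted as in a list with an overlap of 1 bp. Distances are gaps between edges. Alternatives were a pseudocount of 8, a filter at a mean of 50, TMM and quantile scaling, fewer libraries in the fit, a log2 minimum of 1, a replicate block, and leaving out each library. The peaks named are the 6 with the largest dip ratio, the 4 with the highest level, the 2 highest and 2 lowest in stage 5 over stage 8, the 2 largest called rises and falls from gastrula to stage 4tt, 2 on either side of the limit, and the longest stretch, where CTEL_peak_33761 was added after its values were seen. The members and the comparison sets were chosen with earlier results of these data known. Motifs, sequences and neighbouring genes were not analysed here.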

Additional observations from a re-analysis of the deposited data

How the results depend on the processing

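Of 147 alternatives run on 10 counts, 106 gave a count within 1.5 times and 41 did not. The number of members was 2457 with TMM factors, 1591 after quantile normalization and 946 with a fold of 2, and ran from 3368 to 3902 when libraries were left out. The peaks themselves changed more than their number. Of the members, 73.3% were found again without replicate 1 and 78.35% without replicate 2. With a single library left out, 82.7% (64-cell replicate 1) to 99.9% (stage 5 replicate 1) were found again. Members that opened from gastrula to stage 4tt numbered 319 after quantile normalization, 286 with only the 4 libraries compared, 347 with only the Oxford libraries and 29 at an absolute log2 change of at least 1, and 359 to 790 when a library was left out. Those that closed numbered 162 with TMM factors, 172 after quantile normalization, 28 with 4 libraries, 41 with the Oxford libraries, 5 at a log2 change of at least 1, and 57 to 132 when a library was left out. From stage 5 to stage 8 the 4 Novogene libraries alone gave 1043 opened and 222 closed, a log2 change of at least 1 gave 52 opened and, by limma, 0 closed (the other scalings gave 102 and 129 closed, the latter after quantile normalization), and leaving out a library gave 230 to 635 opened and 12 to 88 closed. At a log2 change of at least 1, 1634 members opened from stage 4tt to stage 5 and 0 differed between 64 cells and stage 8, which the rule holds within 1.5 times, where leaving out a library gave 286 to 1059. The causes were not tested, except that fewer libraries and a fold limit act by their construction. Members called in both high stages and in neither low stage numbered 55 when 50% of the peak had to be covered, 124 at a −log10 q of at least 5, and 440 to 580 with 1 list per stage. Members with another within 5 kb numbered 973, and within 50 kb 2757.

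With the replicate number as a block, 667 members opened and 94 closed from gastrula to stage 4tt. The replicate numbers are shared by label only, and deviations of same-numbered libraries correlated at −0.06 to 0.12 between stages. The block moved no count by over 1.5 times. For 28 named members, 1008 alternatives of the gastrula to stage 4tt and stage 5 to stage 8 changes gave the same direction and call in 963, lost a call in 34 and gained one in 11, and none turned a called direction.

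Over all peaks the step between stage 4tt and stage 5 had a median log2 change of 0.23 as deposited and 0.00 with TMM factors, so openings in that step are to be read relative to it. The depth of single libraries is not given in the table, no interval for counting error could be given, and 2 libraries per stage limit the precision. The motif alternative was not run, since no genome of the build was used.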
